A study of Mus musculus with 3 samples.

Results

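The 10 genes described here form 5 of the pairs in cis whose nascent transcripts the study imaged by intron FISH, namely Macf1 with Foxj3, Gpc1 with Gbx2, Nf2 with Efemp1, Tead1 with Nkx1-2, and Cd9 with Mlf2. They were taken by symbol from the Smart-SCRB count tables, in which all 10 were found among 52636 genes. Smart-SCRB is a plate-based single-cell RNA-seq assay in which each captured transcript is tagged with a well barcode and a unique molecular identifier (UMI), and counts are therefore captured molecules, not reads. The cells were JM8.N4 mouse ES cells of the C57BL/6N strain, in which the cohesin subunit RAD21 was fused to an auxin-inducible degron by CRISPR/Cas9. Controls carried this fusion as well and received no auxin, whereas the cohesin-depleted group was given 500 μM auxin for 6 h. All cells were grown without feeders in medium with serum, leukemia inhibitory factor and inhibitors of MEK and GSK3. The whole procedure was carried out 3 times, with control and auxin-treated cells each time.

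Cohesin is a ring-shaped complex that extrudes chromatin loops and, together with CTCF, separates the genome into domains. Intron FISH marks the sites at which a gene is being transcribed at that moment, whereas a UMI count reads messenger RNA that can outlive a burst by hours. The question put to the counts was therefore whether transcripts of partner genes were found together in single cells more or less often after cohesin loss. Cd9 and Mlf2, the closest pair, served the study as control partners located in a single accessible domain, and the other 4 pairs as distant partners.

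The tables held 1335 cells past the study's filter of more than 2600 detected genes, and 1167 of them entered the comparisons. The other 168 cells came from 2 of the 4 plates of replicate 3, for which the deposited annotation and the study's source values give opposite conditions. Control and auxin-treated cells numbered 168 and 169 in the first replicate, 371 and 290 in the second, and 85 and 84 in the last. The median UMI count per cell lay between 72317 and 187088 in the 6 groups. Every plate held 1 condition, and in replicate 3 each condition rested on 1 plate, so that plate and condition cannot be told apart there. Well barcodes recur between plates because each plate was a library of its own, and 0 barcodes recurred within a plate. The embryonic stem cell markers Nanog, Zfp42, Esrrb and Dppa5a were measured in all 3 replicates, but Nanog reached only 58.6 CPM (a count scaled to a common library total) in control and 38.9 CPM in auxin-treated cells of replicate 2, against 495 to 563 CPM in the other two. Pou5f1 was at 273 CPM in control cells of replicate 1 but at 8.40 and 12.5 CPM in replicates 2 and 3. Utf1 went the other way from Nanog, with 182 CPM in replicate 2 against 29.4 and 52.1 CPM. Sox2 was at 155 CPM in control cells of replicate 1 and at exactly 0 in replicates 2 and 3. Nkx1-2 has the same pattern, described below, and the 0 of Sox2 is not read as absence of its transcript either. Summed over 17 markers of fibroblast feeders, endoderm, mesoderm, neuroectoderm, trophoblast and 2-cell-like cells, the level was 24.6 to 53.6 CPM in control and 25.0 to 44.0 CPM in auxin-treated sums. Among them, the 2-cell-like marker Zscan4d had 0 UMIs in all control cells and 166, 3 and 10 UMIs in 4, 3 and 1 auxin-treated cells of replicates 1, 2 and 3, and its part in the members' values was not tested. Rad21 mRNA, on which the degron does not act, ranged from 20.9 to 42.4 CPM in controls and from 19.3 to 45.2 CPM after auxin.

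Nkx1-2, a homeobox gene of caudal progenitors, had 735 UMIs in replicate 1 and 0 UMIs in replicates 2 and 3. Other genes at the same locus had the same pattern. In the GENCODE M21 annotation of mm10, Nkx1-2 (chromosome 7, 132594878 to 132599637, minus strand) lies inside the span of Fgfr2 (130162451 to 133123350) on the same strand. Oat, Fam53b and Eef1akmt2, which lie in that span on the same strand, had 89.7, 24.5 and 33.4 CPM in replicate 1 and were at 0 in replicates 2 and 3. Fgfr2 itself, a receptor tyrosine kinase for fibroblast growth factors, had 0.564 CPM in replicate 1 but 133 and 126 CPM in replicates 2 and 3. Lhpp and Abraxas2, on the opposite strand, were counted in every replicate. Across the tables, 130 of 139 genes (93.5%) above 10 CPM in replicate 1 and lying inside another gene on the same strand were at 0 in both other replicates, against 1 of 229 (0.437%) inside a gene of the opposite strand only and 37 of 7325 (0.505%) outside any other gene. Values of Nkx1-2 are therefore given for replicate 1 only, and the 0 in replicates 2 and 3 is not read as absence of its transcript.

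**Figure D1:**
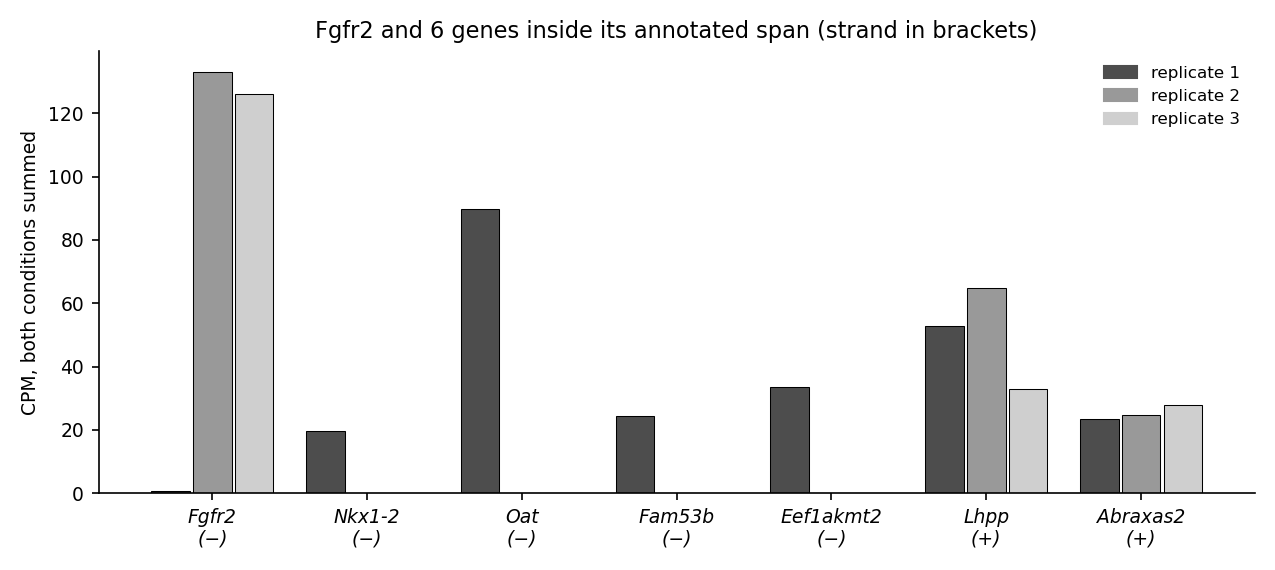
CPM of Fgfr2 and of 6 genes within its annotated span, in each replicate with both conditions summed (bars, linear axis from 0). The 4 genes on the strand of Fgfr2 have values in replicate 1 only, Fgfr2 is at 0.564 CPM there and at 133 and 126 CPM in replicates 2 and 3, and Lhpp and Abraxas2 on the opposite strand have values in all 3.

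The partners are 0.563 to 24.0 Mb apart, counted between start sites in mm10. Macf1 (chromosome 4, 123349633 to 123684360) is the longest member with 335 kb and 101 introns in its transcript with most exons, and its start lies 4.15 Mb from that of Foxj3 (119537004 to 119629119), with 39 protein-coding genes between them. Gpc1 (chromosome 1, 92831645 to 92860779) and Gbx2 (89927956 to 89931179) are separated by 2.90 Mb and 34 protein-coding genes. Nf2 (chromosome 11, 4765845 to 4849536) and Efemp1 (28853204 to 28926743) are 24.0 Mb apart with 114 protein-coding genes between them. Tead1 (chromosome 7, 112679318 to 112906807) starts 19.9 Mb from Nkx1-2. Cd9 (chromosome 6, 125460266 to 125494791) and Mlf2 (124931386 to 124937238) are the closest partners at 0.563 Mb, with 20 protein-coding genes between them. Exons overlap a gene on the opposite strand in Gpc1 (Ankmy1, 977 bases), Gbx2 (D130058E05Rik, 946 bases), Nkx1-2 (Gm16764, 541 bases) and Cd9 (Gm26728, 218 bases). Whether the counting used the strand is not given in the sources used here. As given above, genes inside another gene were at 0 in replicates 2 and 3 mostly where both lay on the same strand (93.5%, against 0.437% for the opposite strand only). Whether counts of these 4 genes hold reads of their antisense neighbours was not tested.

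No member was called as different between conditions at the population level. In the edgeR quasi-likelihood test on UMI counts summed per replicate and condition, 0 of the 9 members that passed the filter on low counts were called at an adjusted p under 0.05, and Nkx1-2 did not pass that filter. Over all genes, 0 of 17514 tested (0% called) passed, 33 (0.188%) had an unadjusted p under 0.05, and DESeq2 called 0 as well. Blocking on the replicate gave 3 calls (0.0171%) in edgeR and 57 (0.325%) in DESeq2, none of them a member, and no member had an unadjusted p under 0.05 in the blocked edgeR fit, where 5.92% of all genes did. The fitted log2 fold changes (auxin over control) ran from −0.23 for Cd9 to 0.50 for Efemp1 with a median of 0.03, beside a median of −0.0010 over all genes tested. The tetraspanin gene Cd9 had the largest standard error, 0.95, and its level differed between replicates far more than between conditions. With the replicate block its standard error was 0.11 and its log2 fold change −0.07. Unless stated otherwise, standard errors given below are those of the fit without the block and hold the spread between replicates.

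**Figure D2:**
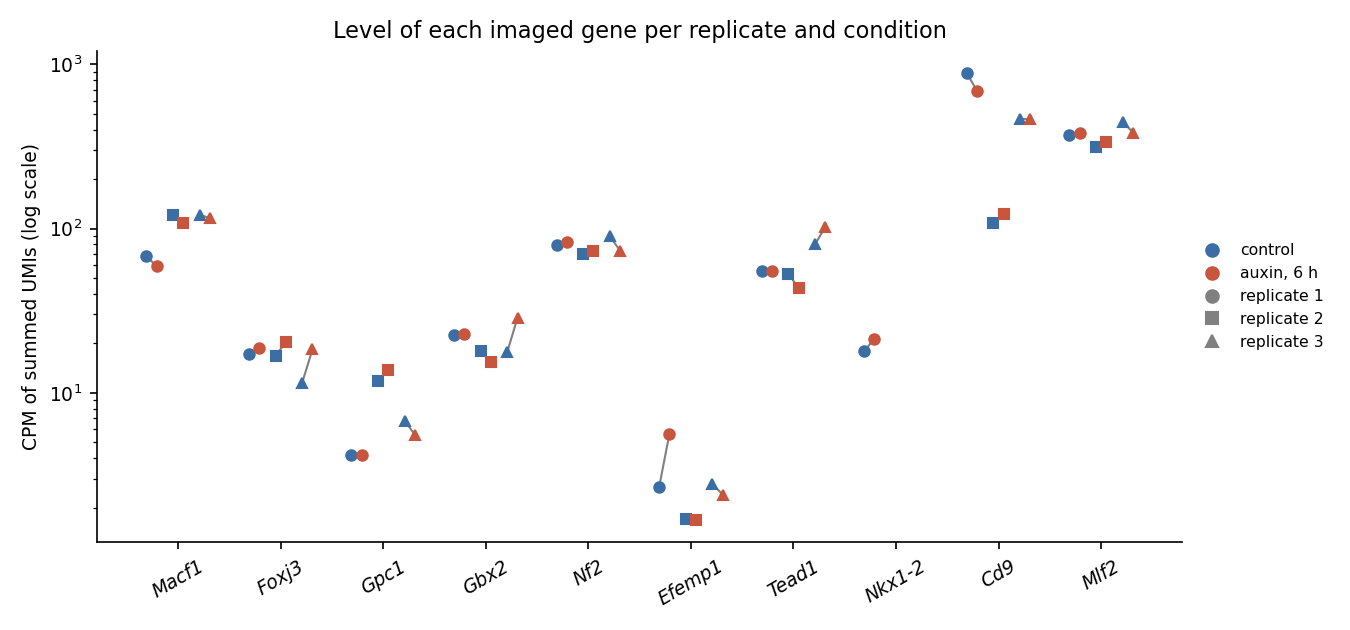
Level of each imaged gene as CPM of the UMIs summed over the cells of a replicate and condition (log axis), with a grey line joining control (blue) and auxin-treated cells (red) of a replicate. For Cd9, Gpc1 and Macf1 the replicates lie farther apart than the conditions, and Nkx1-2 is drawn for replicate 1 only.

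Macf1 encodes a giant linker of microtubules and actin, and Foxj3 a forkhead transcription factor. Macf1 was at 67.8, 121 and 122 CPM in control cells of replicates 1, 2 and 3 and at 59.0, 108 and 115 CPM after auxin. It was thus lower after auxin in 3 of 3 replicates, as were 14.1% of all 16387 genes with a value in every sum, and its log2 fold change was −0.15 (SE 0.24, adjusted p = 1.00 in edgeR). A Macf1 UMI was present in 72.0%, 96.0% and 92.9% of control cells and in 72.2%, 91.0% and 94.0% of auxin-treated cells. Foxj3 was at 17.2, 16.9 and 11.5 CPM in control and at 18.7, 20.3 and 18.4 CPM after auxin, which is higher in 3 of 3 replicates beside 16.2% of all genes, with a log2 fold change of 0.29 (SE 0.36, adjusted p = 1.00 in edgeR). This rests on leaving out the disputed plates of replicate 3, where Foxj3 was at 24.8 CPM on the plate annotated as control and 15.5 CPM on the one annotated as auxin-treated. With them placed as annotated, the log2 fold change of Foxj3 was 0.064. Its share of positive cells went from 37.5% to 44.4% in replicate 1, from 53.6% to 47.9% in replicate 2 and from 27.1% to 41.7% in replicate 3. In replicate 2 the Foxj3 share was thus lower after auxin while its level was higher. It was lower as well with cells thinned to 50000 UMIs (41.9% and 36.9%) and in cells with more than 4000 detected genes (55.4% and 51.3%). The share was higher there when cells were thinned to 20000 UMIs (22.6% and 26.0%) or at least 2 UMIs were required (36.7% and 40.3%). Thinned to 20000 UMIs, the Foxj3 share of replicate 1 was 22.0% and 21.3%. In replicate 2, the median Foxj3 count in positive cells was 2 UMIs in control and 7 UMIs after auxin.

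Macf1 and Foxj3 were detected together in 46 of 168 control and 61 of 169 auxin-treated cells in replicate 1. The numbers were 193 of 371 and 133 of 290 for replicate 2, and 20 of 85 and 33 of 84 for replicate 3. The product of the single shares predicts the number of such cells if detection of one gene says nothing about the other. The observed share over this expected share was 1.01, 1.01 and 0.936 in control and 1.13, 1.05 and 1.00 after auxin. It was higher after auxin in every replicate, by 0.0734 ± 0.0367 (SD, n = 3), where 16.8% of all 535180 pairs of expressed genes on the 5 chromosomes were also higher in 3 of 3 and 5.75% were lower. The largest ratio that the single shares allow was 1.39 in control cells of replicate 1 but only 1.04 in those of replicate 2, since nearly every cell there held a Macf1 UMI. The Spearman correlation of CPM across cells was 0.0338, −0.0448 and −0.371 in control and 0.123, −0.0243 and −0.0659 after auxin. The difference of 0.138 ± 0.149 (SD, n = 3) was positive in 3 of 3 replicates, as for 15.1% of all pairs on these chromosomes (10.1% were lower in 3 of 3), and was smaller than its SD. The difference was largest in replicate 3, in which the control value rested on 1 plate of 85 cells and lay below the 5th percentile of pairs on chromosome 4 (−0.172). Without replicate 3 the mean difference was 0.0550. With the disputed plates placed as in the source values, joint detection in replicate 3 was 1.01 in control and 1.00 after auxin, no longer higher, and the mean correlation difference was 0.040. With cells thinned to 20000 UMIs, the correlation was lower after auxin in replicates 1 and 2 (0.0955 against 0.0407, and −0.00720 against −0.0587). Cells with a Foxj3 UMI were also deeper, with a median of 154285 UMIs against 128656 in other control cells of replicate 2. On cells thinned to 20000 UMIs, joint detection over that expected was 1.14, 1.05 and 0.855 in control and 1.10, 0.923 and 1.22 after auxin, lower in replicates 1 and 2.

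Gpc1 encodes a glypican, a heparan sulfate proteoglycan anchored in the plasma membrane, and Gbx2 a homeobox factor of the naive ES cell network and of the midbrain-hindbrain border. Gpc1 was at 4.16, 11.8 and 6.76 CPM in control and at 4.16, 13.8 and 5.53 CPM after auxin, with a log2 fold change of 0.03 (SE 0.58, adjusted p = 1.00 in edgeR). A Gpc1 UMI was found in 9.52%, 31.0% and 12.9% of control cells and in 10.7%, 32.4% and 16.7% of auxin-treated cells. This share was higher after auxin in 3 of 3 replicates, as for 18.7% of all genes, by 2.09 ± 1.42 percentage points (SD, n = 3). Flipping the signs of the 3 differences gave p = 0.25 (exact permutation, two-sided), which is the lowest p that 3 replicates can reach. After thinning to 20000 UMIs the Gpc1 share was higher in replicate 1 only. Thinned to 50000 UMIs it was higher in 3 of 3, at 6.96%, 25.7% and 12.5% in control and 8.64%, 28.2% and 12.9% after auxin. Gbx2 was at 22.4, 17.9 and 17.8 CPM in control and at 22.8, 15.5 and 28.7 CPM after auxin. Its share of positive cells went from 29.8% to 26.6% in replicate 1 and from 21.6% to 16.9% in replicate 2, but from 23.5% to 41.7% in replicate 3. Among the 4 auxin plates of replicate 2 alone, the Gbx2 share ranged from 8.22% to 25.0%, a spread within 1 condition.

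Few cells held both Gpc1 and Gbx2. They numbered 4 of 168 control and 5 of 169 auxin-treated cells for replicate 1, 32 of 371 and 21 of 290 for replicate 2, and 3 of 85 and 2 of 84 for replicate 3. Joint detection over that expected was 0.840, 1.29 and 1.16 in control and 1.04, 1.32 and 0.343 after auxin, with a mean difference of −0.194 ± 0.546 (SD, n = 3). In replicate 3, the 2 auxin-treated cells with both genes stood against 5.83 cells expected, and the exact binomial interval of that share was 0.290% to 8.34%. In replicate 2, 40.0% of Gbx2-positive control cells and 42.9% of Gbx2-positive auxin-treated cells had a Gpc1 UMI, whereas the share over all cells was 31.0% and 32.4%. The Gbx2-positive cells were also deeper, with median UMI counts of 169996 against 137404 in control and 214974 against 172408 after auxin. With cells thinned to 20000 UMIs, the ratio was 0.677, 1.03 and 1.87 in control and 0.545, 0.743 and 0 after auxin, lower in each replicate, with 0 to 8 cells holding both genes. Thinned to 50000 UMIs, it was 0.326, 0.896 and 1.50 in control and 0.807, 1.12 and 0 after auxin, higher in replicates 1 and 2, with 0 to 15 cells holding both. The correlation on CPM was −0.0456, 0.0683 and 0.0518 in control and −0.00220, 0.0725 and −0.211 after auxin. The sign of the difference was not the same in all replicates (−0.0718 ± 0.167, SD, n = 3), and thinned to 20000 UMIs it was −0.0265, −0.0159 and −0.318. The mean difference was 0.0238 without replicate 3 and 0.0113 with the disputed plates as annotated. Joint detection turned as well, to a mean difference of 0.114 with those plates as annotated and 0.117 without replicate 3.

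Nf2 encodes merlin, a membrane-linked tumour suppressor that acts upstream of the Hippo kinases, and Efemp1 the extracellular matrix glycoprotein fibulin-3. The study's source tables spell this partner of Nf2 as Efemp1 in one place and as its relative Efemp2 in others, and Efemp1 is the one on the chromosome of Nf2. Nf2 was at 79.3, 70.3 and 89.5 CPM in control and at 82.8, 73.2 and 73.3 CPM after auxin (log2 fold change −0.06, SE 0.26, adjusted p = 1.00 in edgeR). A Nf2 UMI was present in 88.1%, 82.7% and 83.5% of control cells and in 84.0%, 82.1% and 78.6% of auxin-treated cells. The share was lower after auxin in 3 of 3 replicates, as for 10.2% of all genes, with a mean difference of −3.24 ± 2.26 percentage points (SD, n = 3; p = 0.25 by the same exact permutation), and it was lower in 3 of 3 after thinning to 20000 UMIs as well, where 12.2% of genes were. It was not lower in 3 of 3 under other settings, going from 79.2% to 82.9% in replicate 3 thinned to 50000 UMIs and, in replicate 2, from 75.2% to 77.9% with at least 2 UMIs and from 84.9% to 87.7% in cells with more than 4000 detected genes. Efemp1 had few UMIs, 48 and 108 for replicate 1, 84 and 85 for replicate 2, and 17 and 16 for replicate 3. Its level of 2.66 CPM without and 5.62 CPM with auxin in replicate 1 stood beside nearly equal levels in replicates 2 (1.71 and 1.68 CPM) and 3 (2.80 and 2.39 CPM). Its log2 fold change was 0.50 (SE 0.76, adjusted p = 1.00 in edgeR) and −0.13 without replicate 1.

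Cells with both Nf2 and Efemp1 numbered 11, 31 and 5 without auxin and 18, 22 and 6 with it. The ratio to the expected share was 1.04, 1.07 and 0.998 in control and 1.02, 1.12 and 1.27 after auxin, a difference of 0.100 ± 0.155 (SD, n = 3) that was −0.0348 when at least 2 UMIs of each were required. In auxin-treated cells of replicate 3 all 6 Efemp1-positive cells also held Nf2, so that the ratio equalled the largest one possible. The correlation on CPM was 0.0558, −0.0104 and −0.0555 in control and 0.0556, 0.0126 and 0.00597 after auxin. These values lay within the 5th to 95th percentile of pairs on chromosome 11 in each group. Those pairs hold only genes with a mean of at least 1 UMI per cell. Efemp1 did not reach that mean (0.226 to 0.639 UMIs in replicates 1 and 2), so no conclusion is drawn from the comparison. The difference of 0.0281 ± 0.0312 (SD, n = 3) did not exceed its SD and was −0.0141 with the disputed plates as annotated.

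Tead1 encodes a DNA-binding partner of YAP, the effector that the Hippo kinases restrain. Its level was 55.0, 53.1 and 80.1 CPM in control and 55.3, 43.4 and 102 CPM after auxin, lower in replicate 2 and higher in replicate 3, with a log2 fold change of 0.08 (SE 0.35, adjusted p = 1.00 in edgeR). A Tead1 UMI was found in 72.6%, 79.8% and 89.4% of control cells and in 74.6%, 72.8% and 84.5% of auxin-treated cells. In replicate 3 the Tead1 share was lower after auxin as counted, but higher when cells were thinned to 20000 UMIs (67.9% and 70.9%) or the disputed plates were placed as annotated (86.4% and 89.4%). It stayed lower with those plates placed as in the source values (92.0% and 84.0%) and in cells with more than 4000 detected genes (89.3% and 87.2%). Thinned to 50000 UMIs the share was 88.9% and 88.6%. Nkx1-2 in replicate 1 was at 18.0 CPM without and 21.4 CPM with auxin, with a UMI in 34.5% and 37.9% of them. Tead1 and Nkx1-2 were found together in 46 of 168 control cells and 52 of 169 auxin-treated cells, 1.09 times the expected share in both conditions. Their correlation on CPM was 0.00118 in control and 0.00227 after auxin, whereas the control plates of replicate 1 taken singly gave −0.159 and 0.171. The comparison of this pair has no replicate, and its differences were far smaller than the SD between plates of 1 condition (0.183 for the correlation).

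Cd9 encodes a tetraspanin of the plasma membrane, and Mlf2 myeloid leukemia factor 2. The Cd9 level was 883, 108 and 464 CPM in control and 688, 123 and 465 CPM after auxin. Replicate 2 was thus the low one in both conditions, as it was for Nanog, and a Cd9 UMI was absent from some cells only there (84.9% without and 84.8% with auxin had one, against 100% in replicates 1 and 3). Mlf2 was at 370, 314 and 447 CPM in control and at 380, 338 and 384 CPM after auxin, higher in replicates 1 and 2 and lower in replicate 3. It was detected in 95.7% and 95.2% of cells of replicate 2 and in all cells of the other groups. With both genes in nearly every cell, joint detection could not depart from expectation in replicates 1 and 3, and in replicate 2 it was 1.03 in both conditions, where the largest possible ratio was 1.05.

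**Figure D3:**
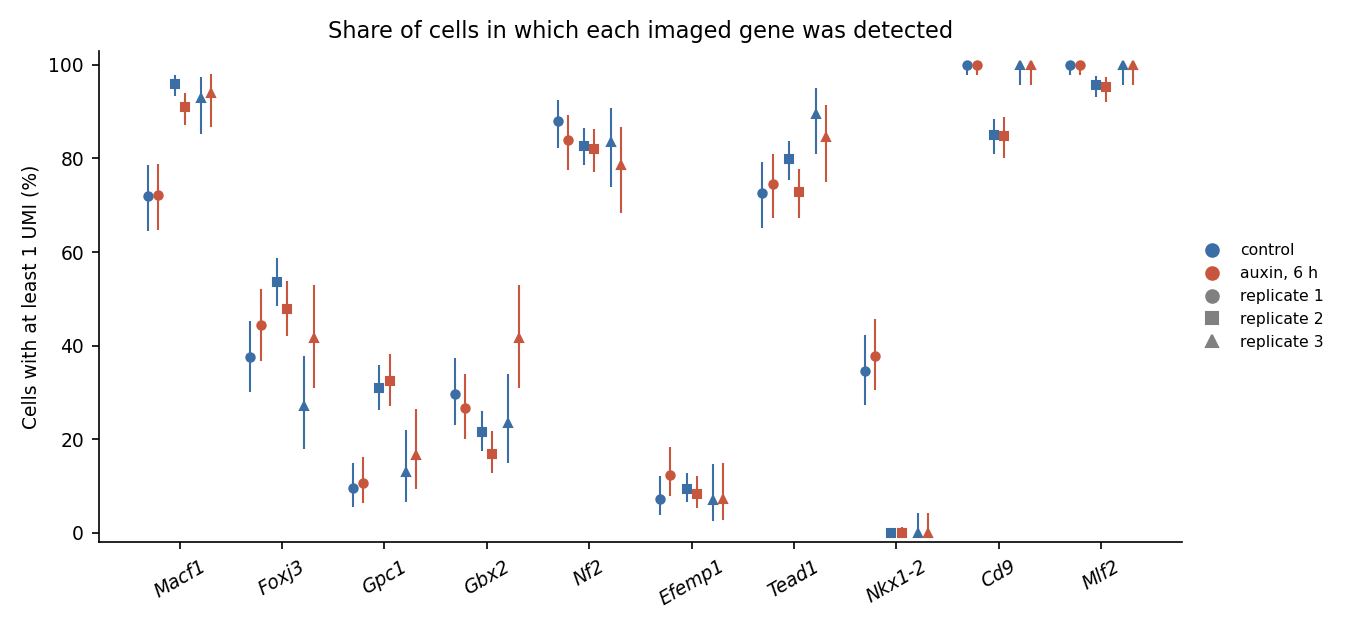
Percent of cells with at least 1 UMI of each imaged gene, by replicate (marker shape) and condition (blue control, red auxin), with exact 95% binomial intervals that cover counting error only. Cd9 and Mlf2 reach 100% in replicates 1 and 3, Efemp1 stays between 7.06% and 12.4%, and the points of Nkx1-2 at 0 in replicates 2 and 3 are the ones that are not read as absence.

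**Figure D4:**
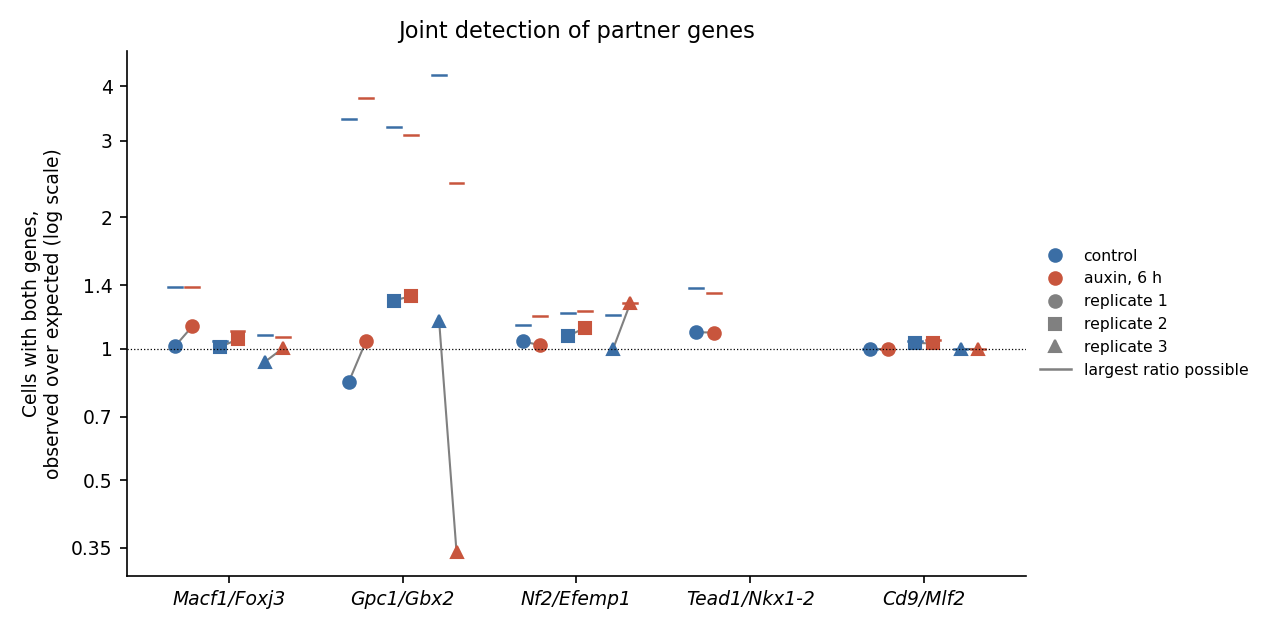
Share of cells with UMIs of both partners over the product of the single shares (log axis; 1, dotted, is independence), by replicate (marker shape) and condition (blue control, red auxin), with short bars for the largest ratio the single shares allow. Tead1/Nkx1-2 has values in replicate 1 only, and the low value of Gpc1/Gbx2 in replicate 3 rests on 2 cells with both genes.

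Cd9 and Mlf2 were the partners with a positive correlation in all 6 groups as filtered here. Their correlation on CPM was 0.222, 0.148 and 0.517 in control and 0.242, 0.0727 and 0.330 after auxin, and it was positive on 13 of 14 plates taken singly. In auxin-treated cells of replicate 2 it was −0.0311 among those with more than 4000 detected genes. In replicates 1 and 3 the control values exceeded the 95th percentile of pairs on chromosome 6 (0.174 and 0.225), and in replicate 2 the value did not (0.228). Of 6646 genes with a mean of at least 1 UMI per cell in control cells of every replicate, Cd9 had the highest mean correlation with Mlf2 (0.296), ahead of the ribosomal protein genes Rps4l (0.276) and Rpl32 (0.262). Seen from Cd9, Mlf2 ranked 7th, and the leading genes were Psap (0.353), a lysosomal protein precursor, Slc2a3 (0.351), a glucose transporter, and Gpx1 (0.334), a glutathione peroxidase. Both were counted far more often per cell than the members of the other pairs in replicates 1 and 3, and with cells thinned to 20000 UMIs the correlation was 0.141, 0.0884 and 0.326 in control and 0.186, 0.00597 and 0.206 after auxin. Given the UMI count of the cell, the control values were 0.221, 0.0938 and 0.516. After auxin the correlation of Cd9 with Mlf2 was higher in replicate 1 and lower in replicates 2 and 3, by −0.0806 ± 0.103 on average (SD, n = 3). On raw UMI counts each of these differences turned, to −0.0339, 0.0167 and 0.0814.

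**Figure D5:**
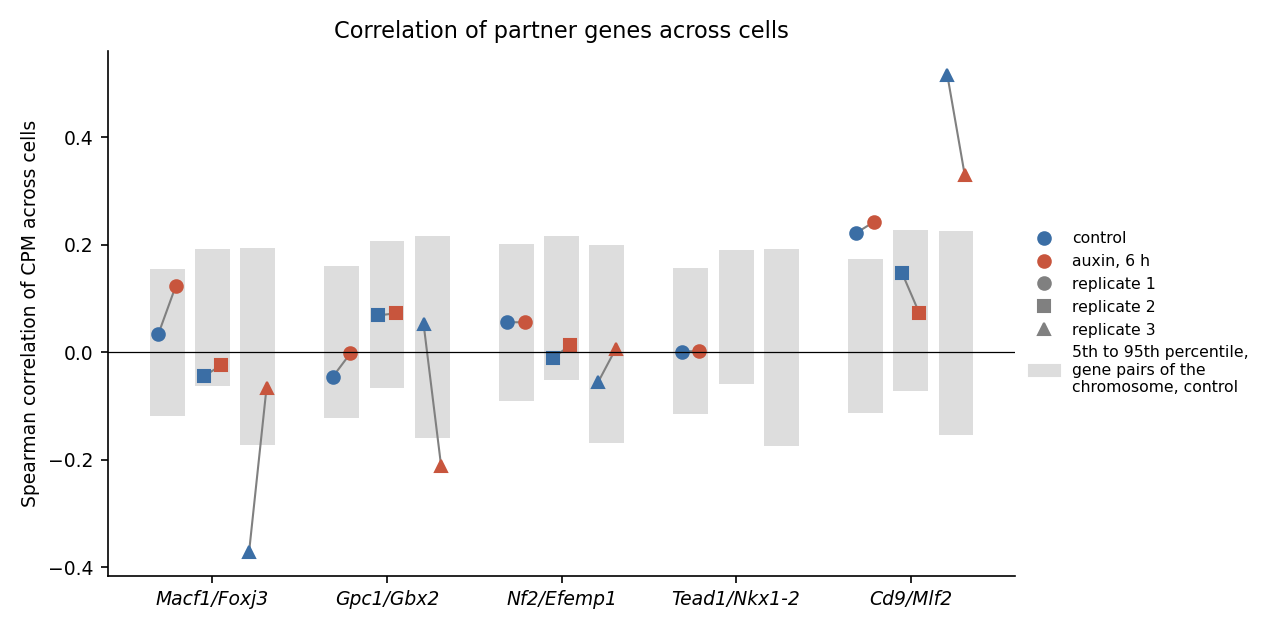
Spearman correlation of CPM across cells for each pair of partners, by replicate (marker shape) and condition (blue control, red auxin), with the 5th to 95th percentile over all expressed gene pairs of the same chromosome in control cells as grey bars. Cd9/Mlf2 is above 0 in all 6 groups, and the steepest lines of Macf1/Foxj3, Gpc1/Gbx2 and Cd9/Mlf2 are those of replicate 3, in which each condition is 1 plate.

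Because Cd9 and Mlf2 varied together, the stretch before each gene's start is shown from RefSeq (GRCm38.p6, the assembly of mm10). Promoters of 8 of the 10 members were matched by symbol, and only bases 250 to 51 before the RefSeq start of these 2 genes are printed, with capitals marking GGGCGG or its reverse complement CCGCCC, the GC box bound by SP1-family factors. The Cd9 stretch is chr6:125494811-125495010 on the minus strand and the Mlf2 stretch chr6:124931138-124931337 on the plus strand.
Cd9: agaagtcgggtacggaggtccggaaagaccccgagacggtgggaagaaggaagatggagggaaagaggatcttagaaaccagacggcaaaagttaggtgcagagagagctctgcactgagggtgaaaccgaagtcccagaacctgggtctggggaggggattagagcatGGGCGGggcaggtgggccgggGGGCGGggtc
Mlf2: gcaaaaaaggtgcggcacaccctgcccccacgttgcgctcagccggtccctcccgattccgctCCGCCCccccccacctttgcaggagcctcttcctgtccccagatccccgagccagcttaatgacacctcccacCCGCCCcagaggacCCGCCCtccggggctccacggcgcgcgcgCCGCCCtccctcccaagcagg
Cd9 holds 2 and Mlf2 holds 4 copies of the GC box on either strand, which occurs in 24.6% of all 32851 such windows in the table. CCAAT (28.4% of windows, both strands), TATAAA (9.14%) and TGACGTCA (0.828%) were searched as well and are not in either window. The motifs were chosen after the sequences had been read.

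The 40 combinations of members on different chromosomes had median correlations on CPM of 0.00367, 0.0113 and −0.0225 in control and −0.00825, 0.0490 and 0.00820 after auxin (40, 32 and 32 combinations in replicates 1, 2 and 3, as those with Nkx1-2 exist in replicate 1 only). Of the 32 with values in every replicate, 6 (18.8%) were higher after auxin in 3 of 3 and 4 (12.5%) were lower in 3 of 3. Over all combinations of a replicate, the highest control value was 0.212, 0.135 and 0.232 in replicates 1, 2 and 3, and Cd9/Mlf2 was above it in each. After auxin Cd9/Mlf2 was below the highest combination in replicates 1 (0.242 against 0.251) and 2 (0.0727 against 0.184), and above it in replicate 3 (0.330 against 0.197). Given the UMI count of the cell, its control value in replicate 2 (0.0938) was below that of Macf1 with Tead1 (0.122). Macf1/Foxj3 in control cells of replicate 3, at −0.371, was below the lowest combination there (−0.211), and the other control values of partner pairs lay within the range of their replicate. Members share cells and depth in these comparisons, and no test was made of the difference.

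The surroundings of the partners were compared through all pairs of 1 gene within 1 Mb of one partner and 1 gene within 1 Mb of the other. For Macf1/Foxj3, with 99 such gene pairs, the mean correlation on CPM differed by 0.0168, −0.00132 and −0.00580 in replicates 1, 2 and 3. Around Gpc1 and Gbx2, with 60 gene pairs, it differed by 0.0149, 0.00231 and 0.00713, and around Nf2 and Efemp1, with 192, by −0.000825, 0.0110 and 0.00740. For Tead1/Nkx1-2, with 15, the differences were 0.0185, 0.0169 and −0.0107. All 12 values were below 0.02 in size, and the median difference over all pairs of the same 5 chromosomes ran from −0.00651 to 0.0261. On raw UMI counts, the unit of the study's own coexpression measure, the differences in replicate 3 were 0.0981, 0.125, 0.123 and 0.0574 for the 4 pairs in the same order. As partial correlations given the UMI count of the cell, the differences were −0.0185, −0.0145, −0.00465 and −0.0272 in replicate 3. They were 0.0247, 0.0178, −0.00310 and 0.00801 for replicate 1, and −0.00412, 0.0209, 0.0000947 and −0.0102 for replicate 2. The raw-count differences were 0.0123, −0.000833, 0.00745 and 0.0300 for replicate 1 and 0.0277, 0.0132, 0.0355 and 0.0260 for replicate 2, so that all but that of Gpc1/Gbx2 in replicate 1 were above 0. The coefficient of variation of UMIs per cell was 30.6% without and 44.4% with auxin in replicate 3. It was 37.9% and 34.3% for replicate 1, and 48.4% and 51.5% for replicate 2.

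With cells thinned to 20000 UMIs, Gbx2 had a variance over mean of 2.62, 5.59 and 2.93 in control and 2.75, 8.56 and 2.01 after auxin, where the median over 6868 genes was 2.11 to 2.65 in the 6 groups. In replicate 2, a single control cell reached 86 UMIs of Gbx2 before thinning. The variance over mean was lower after auxin in 3 of 3 replicates for Macf1, with a difference of −0.956 ± 1.08, and for Gpc1, with −0.492 ± 0.314 (SD, n = 3), as it was for 14.4% of all genes (9.97% were higher in 3 of 3). Without thinning the mean differences were 1.90 for Macf1 and 1.14 for Gpc1, and on thinned counts that of Macf1 was −0.332 without replicate 2.

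Genes whose CPM went most with a member across control cells gave mean correlations of 0.159 to 0.353 over the 3 replicates, and 0.294 to 0.302 for Nkx1-2 in replicate 1 alone. For Macf1 these were the mitochondrial ribosomal RNAs mt-Rnr1 (0.216) and mt-Rnr2 (0.191) and the RNA-binding protein gene Msi2 (0.188). For Gbx2 they were Mrpl18 (0.227), Ppid (0.225) and Dhcr7 (0.223), for Gpc1 Trim27 (0.209), Klhdc2 (0.203) and Gm10250 (0.187), and for Foxj3 Pcyox1l (0.176) and Rnf114 (0.170). Nf2 went with Gle1 (0.217), Oaz2 (0.207) and Utp6 (0.197), Efemp1 with Etfa (0.190), Xpa (0.177) and Phgdh (0.168), Tead1 with Rpl5 (0.163) and Rif1 (0.159), and Nkx1-2 with Racgap1 (0.302), Gadd45gip1 (0.295) and Grsf1 (0.294). In auxin-treated cells, where these genes had not been chosen, their mean correlations with the member were lower in all but 1 case, Rpl32 with Mlf2 (0.359). They were picked as the highest of 6646 values in control cells, so the control values carry no test. Among the partners, Gbx2 ranked 2932nd for Gpc1, and Macf1 ranked 6636th for Foxj3 by a mean that holds the −0.371 of the single control plate of replicate 3.

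None of the genes related to the members passed the test. Of 26 relatives in the glypican, ERM, fibulin, TEAD, tetraspanin and similar families, 21 were tested, 0 were called by edgeR with or without the replicate block, and their log2 fold changes ran from −1.15 to 1.11 with a median of −0.01. The lowest unadjusted p without the block were those of the tetraspanin Cd151 (log2 fold change 0.41, SE 0.28), the fibulin Fbln5 (log2 fold change 1.11, SE 1.11) and Gbx1 (log2 fold change −1.15, SE 1.48), each with an adjusted p of 1.00. With the block, 3 relatives had an unadjusted p under 0.05, where 5.92% of all genes did. The lowest was that of Tead4 (log2 fold change −0.54, SE 0.16, unadjusted p = 0.0092 and adjusted p = 0.73 in edgeR with the block). Of 14 Hippo pathway genes, 13 were tested and 0 called, 10 with a log2 fold change above 0 and 3 below, with a median of 0.18. Over all genes tested the median was −0.0010 and the median size without the sign was 0.20, and no test was made of the Hippo genes as a set. Among them the kinase Stk4 had the lowest unadjusted p and was at 18.6, 36.8 and 32.0 CPM in control and 23.8, 42.5 and 39.6 CPM after auxin. The YAP target Ctgf was at 18.6, 2.94 and 6.93 CPM in control and 32.6, 4.40 and 10.5 CPM after auxin. Abcf1 and Trim33, which the study imaged in other pairs, had log2 fold changes of 0.04 and −0.06, each with an adjusted p of 1.00 in edgeR.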

How the data were processed

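Smart-SCRB libraries of single cells sorted into plates were compared without auxin and after 6 h in 500 μM auxin, in 3 replicates. The authors deposited UMI counts per gene and well for 16 plates, with annotation of the wells and a sequencing saturation fraction per plate, and the submitters' processing notes name mm10. The counting program and its use of strand are not given in the sources used here. Genes were placed with GENCODE M21, which held 99.6% of the gene IDs.

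Wells with more than 2600 detected genes were kept, and 2 plates of replicate 3 with conflicting condition labels were left out. No doublet caller was run. Sums of UMI counts over the cells of a replicate and condition were tested with edgeR 4.0.16 (quasi-likelihood, TMM, filter on low counts, Benjamini-Hochberg) in R 4.3.3, with DESeq2 1.42.0 and other settings as alternatives. Levels are CPM of these sums. Joint detection, Spearman correlations over cells, and thinning to 20000 UMIs were computed in Python 3.11.15 (scipy 1.17.1, numpy 2.4.6, pandas 2.3.3, matplotlib 3.10.9). Cells are not replicates, so mean differences are given with the SD over 3 replicates. Shares carry exact 95% binomial intervals that, like all counting intervals here, cover counting error only. Thinning left out cells under 20000 UMIs, namely 0, 8 and 1 control cells and 0, 13 and 5 auxin-treated cells of the 3 replicates. The scripts were checked on simulated data. The study calls the repeats biological replicates and does not say which cultures they came from.

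Same-numbered sums deviated together from their group means (correlations 0.866, 0.822 and 0.656), so the replicate number paired the samples, and it enters as a block in an alternative. The pairs and gene lists were chosen with earlier results of these data known. Besides the 10 imaged genes, the text names up to 3 genes of each list by the lowest unadjusted p, and for each imaged gene the 3 genes with the highest mean correlation in control cells among those with a mean of at least 1 UMI per cell. Some genes that this rule names are not reported here. Imaging data were not used here.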

Additional observations from a re-analysis of the deposited data

How the results depend on the processing

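No imaged gene was called under any alternative run. Over all genes, the replicate block gave 3 calls in edgeR and 57 in DESeq2, and the block in edgeR gave 3 with the replicate 3 plates placed as annotated but 0 with them placed as in the source values. The placements of those plates combined with the block were added after the data had been seen. Leaving out single replicates gave 0 calls throughout. The block moved the log2 fold change of Gpc1 to −0.013 in edgeR and −0.032 in DESeq2 and that of Tead1 to −0.016 in DESeq2. Placing the disputed plates as in the source values gave −0.055 for Gpc1, −0.030 for Gbx2 and 0.0033 for Nf2, and with the block −0.17, −0.063, 0.0023 and, for Tead1, −0.057. Placing them as annotated gave −0.020 for Tead1, and −0.074 with the block. Without single replicates the log2 fold change ran from −0.15 to 0.12 for Gpc1, −0.093 to 0.30 for Gbx2, −0.12 to 0.027 for Nf2, −0.13 to 0.76 for Efemp1, −0.15 to 0.19 for Tead1, −0.34 to 0.064 for Cd9 and −0.087 to 0.031 for Mlf2. The causes were not tested.

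Joint detection differed by 0.0178 for Macf1/Foxj3 thinned to 50000 UMIs, by −0.760 for Gpc1/Gbx2 thinned to 20000 and 0.114 with the plates as annotated, by −0.0348 for Nf2/Efemp1 with at least 2 UMIs, and for Cd9/Mlf2 by −0.0106 thinned to 20000, −0.00255 with at least 2 UMIs and −0.00344 in cells with more than 4000 detected genes. Without single replicates it ran from 0.0536 to 0.0899 for Macf1/Foxj3, −0.392 to 0.117 for Gpc1/Gbx2, 0.0131 to 0.161 for Nf2/Efemp1 and −0.00122 to 0 for Cd9/Mlf2. The correlation difference was −0.0141 for Nf2/Efemp1 and 0.0113 for Gpc1/Gbx2 with the plates as annotated, and 0.0214 for Cd9/Mlf2 on raw counts. Without single replicates the correlation difference ran from 0.0550 to 0.197 for Macf1/Foxj3, −0.129 to 0.0238 for Gpc1/Gbx2, 0.0114 to 0.0422 for Nf2/Efemp1 and −0.131 to −0.0276 for Cd9/Mlf2. The window differences on raw counts were 0.0460 for Macf1/Foxj3 and for Gpc1/Gbx2, 0.0554 for Nf2/Efemp1 and 0.0378 for Tead1/Nkx1-2. The partial correlation gave −0.00255 for Nf2/Efemp1 and −0.00977 for Tead1/Nkx1-2, cells with more than 4000 genes −0.00580 for Nf2/Efemp1, the plates as annotated −0.00182 for Nf2/Efemp1, and those as in the source values 0.000195 for Gpc1/Gbx2. Without single replicates the window differences ran from −0.00356 to 0.00773 for Macf1/Foxj3, 0.00472 to 0.0110 for Gpc1/Gbx2, 0.00329 to 0.00918 for Nf2/Efemp1 and 0.00307 to 0.0177 for Tead1/Nkx1-2. Of the other settings, 17 of the shares and 8 of the dispersions moved by more than the SD between replicates, and 70 and 59 did not. Joint values of Gpc1/Gbx2 rest on 2 to 32 cells with both genes in a group and those of Nf2/Efemp1 on 5 to 31.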

Other observations

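The 2 plates of replicate 3 whose condition is given differently in the annotation and in the study's source values entered the comparisons only as alternatives. On the plate annotated as control, with 91 cells, Macf1 was at 119.6 CPM, Foxj3 at 24.8, Gpc1 at 1.59, Gbx2 at 28.2, Nf2 at 89.0, Efemp1 at 4.64, Tead1 at 102, Cd9 at 495 and Mlf2 at 402 CPM. On the plate annotated as auxin-treated, with 77 cells, the same genes were at 115, 15.5, 4.99, 35.7, 78.4, 2.42, 97.7, 455 and 387 CPM. The correlation of CPM was −0.148 and 0.147 for Macf1/Foxj3, −0.106 and 0.161 for Gpc1/Gbx2, 0.0212 and −0.165 for Nf2/Efemp1, and 0.155 and 0.0553 for Cd9/Mlf2, on the former and the latter plate. Nkx1-2 had 0 UMIs on both.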
